A study of Daphnia magna with 84 samples.

Results

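Gene expression was followed from day 6 to day 17 in unexposed Daphnia magna, the animals that the labels place at concentration 0 of a coal ash series. Libraries at concentration 0 from days 6, 10 and 17 were taken, which gave 9 of 84, with 3 animals on each day. Each library was made from 1 whole animal. The day 24 animals of concentration 0 were left out, since nearly all of their counts fell in a few gene models. The exposed animals used beside them numbered 54, with 3 on each of these days at each of 6 concentrations, which are named by mercury content (0.015 and 0.06, 0.12 and 0.25, and also 1 and 4 nM Hg/L). They ate the green alga Chlamydomonas reinhardtii after it had been held in a coal ash mixture. The treatment label reads coal ash at concentration 0 too, and whether the algae of that group were held and handled in the same way is not stated. The labels give no strain or clone, no brood or culture of origin, and no body length or egg count for the sequenced animals. P-values of gene models therefore rest on the spread between animals of a group, whatever its source. That spread was estimated over 81 libraries, most of them from exposed animals, and not over the 9 unexposed ones alone.

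Daphnia magna is a freshwater crustacean that usually reproduces without males: a female makes genetically identical eggs, carries the embryos in a brood pouch on her back and releases the young when she moults. Growth, moulting and egg production follow a repeated cycle in adults, set by moulting hormones and by yolk made in the fat body. A whole-animal library thus mixes gut, muscle, cuticle, ovary and any embryos carried. A lower level in such a library can come from fewer cells of a type or from less RNA per cell, and these cannot be told apart.

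The deposited table names its 27350 gene models by ID alone, and 0 of the IDs matched the reference gene table that was at hand (assembly ASM2063170v1.1). The models are therefore described by position and structure, and markers of tissue, sex or reproductive state could not be read. Positions are those of the deposited table, whose genome build is not given in the sources used here. Strand use in counting is not given either, so overlapping, antisense and near-identical models may share reads.

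Total counts were 22012320, 19097292 and 19239670 in the 3 animals of day 6, 20274591, 26275508 and 20942511 at day 10, and 12085881, 11615188 and 13553967 at day 17. Most of them fell in 5 models: APZ42_024615 held 31.6% of the counts of the 9 libraries, APZ42_003886 18.9%, APZ42_004030 16.4%, APZ42_024616 14.8% and APZ42_003885 8.83%. None of these 5 had an adjusted p below 0.05 between days 10 and 6 (0.65 to 0.95) or between days 17 and 10 (0.87 to 0.98; edgeR). Their log2 changes from day 6 to day 10 were 0.10 to 0.75, with SEs of 0.49 to 0.74, so equal levels are not shown. Together they took 90%, 88.8% and 86.5% of counts at day 6, 91.4%, 90.8% and 94.2% at day 10, and 91.8%, 92.1% and 90.8% at day 17. Neither later day overlapped day 6 in this share (two-sided exact permutation test, p = 0.1 each, the smallest that 3 animals against 3 allow).

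The depth behind every other model was the remainder, which came to 2140041 to 2596374 counts in day 6 animals, 1223223 to 2420144 in day 10 animals and 919693 to 1244255 in day 17 animals. A count of 3 stood for 0.0681 to 0.23 CPM, the counts scaled to library size after TMM scaling, depending on the animal. Replicates 1 and 2 of day 17 were the shallowest libraries, and replicate 3 of day 17 stood close to replicate 3 of day 10. The part of depth in the comparisons with day 17 was not tested beyond the fit with all 9 libraries thinned to 1 depth. At an equal depth of 919693 counts outside the 5 models, the animals had counts in 14014, 14401 and 14445 models at day 6, in 14827, 14438 and 13749 at day 10, and in 14441, 14250 and 14295 at day 17. The number of models detected overlapped between all 3 days (two-sided exact permutation p = 0.9 for day 10 against 6, 1 for day 17 against 10 and 0.9 for day 17 against 6).

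Animals of day 6 were close to each other, while on each later day 1 animal, replicate 2, stood apart from the others. Over the 12685 tested models outside the 5 most abundant, Pearson's r of log2(CPM + 1) was 0.944, 0.977 and 0.954 between the 3 pairs of day 6 animals. At day 10, replicates 1 and 3 were at 0.931, while replicate 2 was at 0.842 with replicate 1 and at 0.772 with replicate 3. At day 17, replicates 1 and 3 were at 0.955, and replicate 2 was at 0.843 and 0.861 with them. Replicate 2 of day 17 was nearer to replicate 1 of day 10, at 0.920, than to the animals of its own day. Replicate numbers only name animals, and the same number on different days stands for different animals. The values describe pairs across models of 1 library each, share the depth of that library and carry no test.

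**Figure D1:**
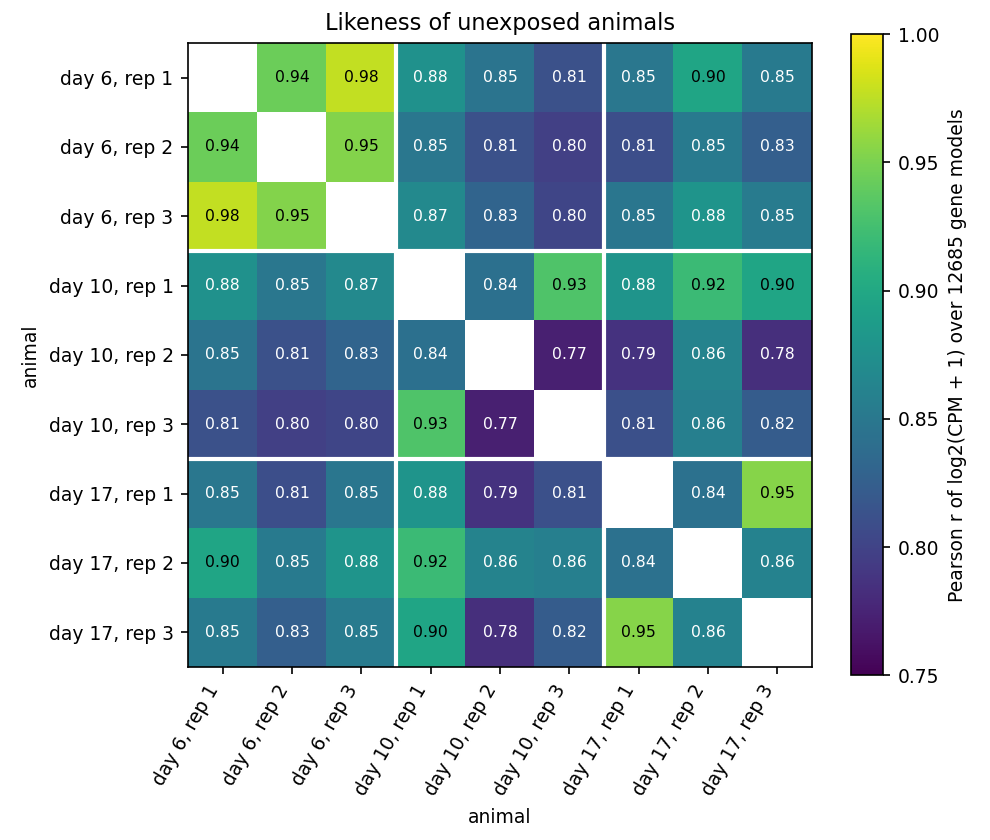
Pearson's r of log2(CPM + 1) over 12685 gene models for each pair of the 9 unexposed animals, which run from day 6 to day 17 on both axes, with white lines between days. The day 6 block is bright throughout (0.944 to 0.977), while the blocks of days 10 and 17 each hold 1 animal, replicate 2, at 0.772 to 0.861 with the other two.

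The same contrast showed in single models. A range of at least 4-fold among the 3 animals of a day, taken on CPM + 1, was found in 60 models (0.473%) at day 6, in 537 (4.23%) at day 10 and in 350 (2.76%) at day 17. At day 10, replicate 2 lay at least 4-fold above both other animals in 0.615% of models and at least 4-fold below both in 0.993%. At day 17, replicate 2 did so in 0.678% and 0.804%. For replicate 3 of day 10 the shares were 0.236% and 0.205%, and no other animal passed 0.166% above or 0.0867% below. The models that were low in replicate 2 of day 10 had a median of 0.477 CPM in it, against 10.7 and 14.1 CPM in replicates 1 and 3 of that day and 1.28 to 1.85 CPM in the animals of day 6. In 76 of them (60.3%) replicate 2 was also the lowest animal of day 17, compared with 37.4% of all models. Of the 78 that were high in replicate 2 of day 10, it was the highest of day 17 in 56 (71.8%), compared with 38.7% of all. These sets were chosen after their values were seen and carry no test.

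Spread of this kind was also found in exposed animals. The median pairwise r was 0.954 at concentration 0 on day 6, and 0.828 to 0.974 in the 6 exposed groups of that day. It was 0.842 at concentration 0 on day 10 and 0.784 to 0.957 in the exposed groups, and 0.861 on day 17 and 0.829 to 0.922 in the exposed groups. On each of the 3 days, the unexposed group therefore lay inside the range of the exposed groups. The share of models with a 4-fold range lay inside it too: it was 0.473%, 4.23% and 2.76% at concentration 0 on days 6, 10 and 17, with exposed ranges of 0.244% to 3.81%, 0.560% to 6.95% and 1.58% to 3.89%.

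**Figure D2:**
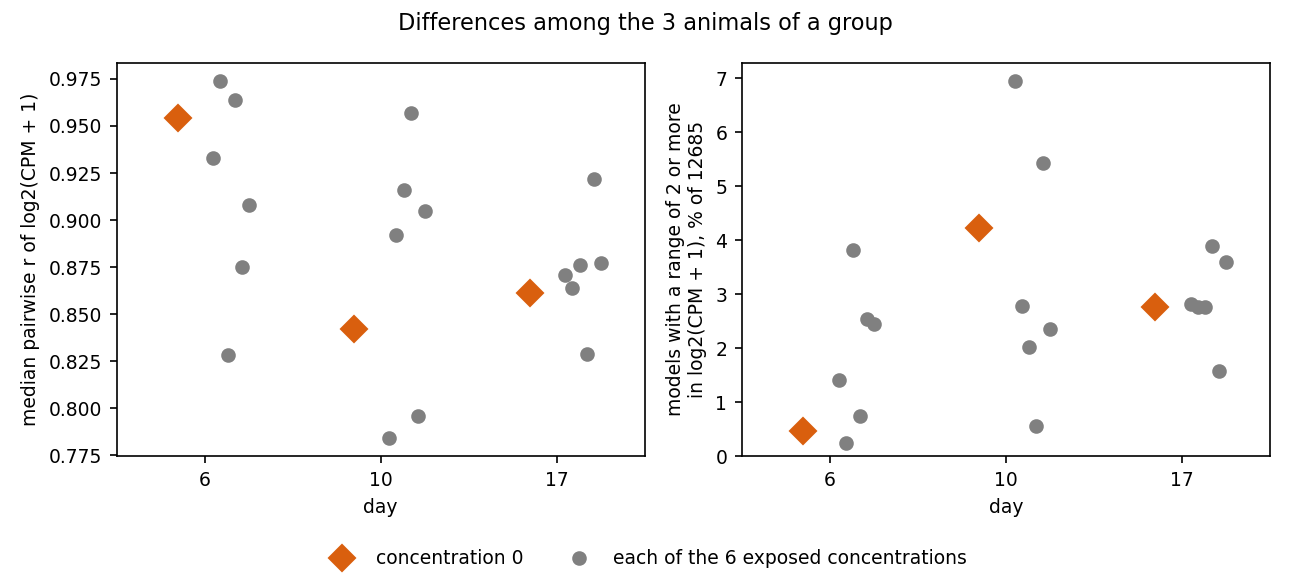
Left, the median Pearson's r of log2(CPM + 1) among the 3 animals of a group; right, the percentage of 12685 models whose 3 values span 2 or more in log2(CPM + 1), by day. Orange diamonds are concentration 0 and grey dots are the 6 exposed concentrations; the diamonds at 0.473%, 4.23% and 2.76% lie inside the grey range on each day.

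Between day 6 and day 10, 587 gene models changed in unexposed animals, 320 higher and 267 lower at day 10. That is 4.63% of 12690 tested (edgeR's quasi-likelihood F test in a fit of 81 libraries, Benjamini-Hochberg adjusted p below 0.05, which is what called means here). The median log2 change was 2.20 among the higher models and -2.42 among the lower ones. A change above 2 in log2 size was found in 345 of the 587. In 20 of the higher and 7 of the lower models, 1 of the days had no counts in any animal, so that their fitted folds have no meaning as sizes; with these set at a bound of 3 counts over the group the medians were 2.20 and -2.37. Without such models the changes ran from 0.66 to 9.65 and from -7.22 to -0.69. The 2 days did not overlap in 531 of the 587 models (90.5%), compared with 3179 (25.1%) of all tested. The calls were made on these same values, so a higher share among them is built in and is only a description.

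APZ42_022503 (scaffold01361, 1141029 to 1144172, minus strand, 7 exons) was among the models with the largest fall. It had 4537, 5353 and 5666 counts in the day 6 animals, which lay between 162 and 191 CPM, and stood at 2.71, 2.52 and 1.95 CPM at day 10 and at 3.68, 9.97 and 5.76 CPM at day 17. All 3 day 6 animals were high and all 6 later animals were low, without overlap. The log2 change at day 10 was -6.17 (SE 1.07, adjusted p = 0.00026). APZ42_026948 (scaffold02140, 11236 to 18995, plus strand, 8 exons) had 14.2, 11.1 and 6.44 CPM at day 6, 0, 0.0908 and 0.189 CPM at day 10, and 0.0682, 0.844 and 0.0619 CPM at day 17. Its day 10 values rest on 0, 4 and 3 counts, against 390, 312 and 225 counts at day 6. It fell by 6.87 on the log2 scale (SE 1.41, adjusted p = 0.0019). These calls of APZ42_022503 and APZ42_026948 held under each of 20 other settings, leaving out each animal included.

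The leading rises varied more between animals. APZ42_034074 (scaffold03326, 328492 to 340135, plus strand, 5 exons) had 0.548, 1.6 and 0.63 CPM at day 6, 247, 53.2 and 324 CPM at day 10, and 183, 5.29 and 449 CPM at day 17. Every later animal was above every day 6 animal, and replicate 2 was the lowest on both later days. Its log2 change at day 10 was 7.80 (SE 2.05, adjusted p = 0.020). APZ42_029452 (scaffold02581, 762958 to 768611, minus strand, 2 exons) had 0.11, 0.143 and 0.0573 CPM at day 6, 23.3, 0.159 and 45.4 CPM at day 10, and 7.44, 3.76 and 16.2 CPM at day 17. At day 10, replicate 2 had 7 counts of this model, close to the 2 to 4 counts of the day 6 animals. The log2 change was 7.73 (SE 2.22, adjusted p = 0.032). Leaving out any 1 of the day 6 animals ended both calls (adjusted p of 0.081 to 0.10 for APZ42_034074 and 0.11 to 0.14 for APZ42_029452), with log2 changes that stayed between 7.43 and 8.44. The call of APZ42_029452 also ended without replicate 3 of day 10 (6.78, adjusted p = 0.081), with limma-voom without quality weights (5.51, adjusted p = 0.40) and with the share of counts outside the 5 most abundant models as a covariate (6.40, adjusted p = 0.062).

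**Figure D3:**
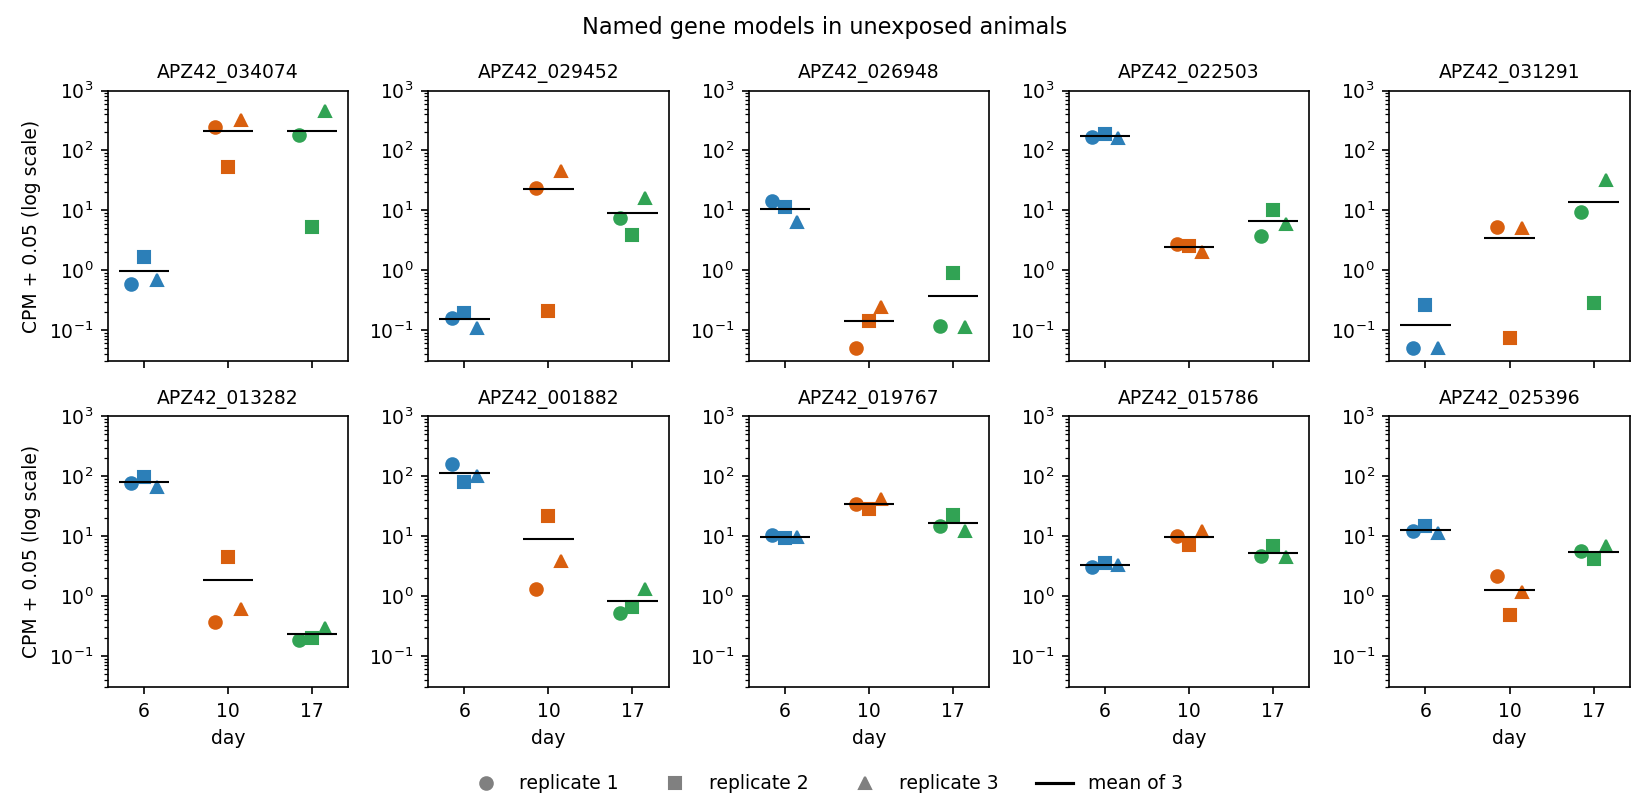
Level of 10 named gene models in each unexposed animal, as CPM + 0.05 on a log axis, by day from 6 to 17; circles, squares and triangles are replicates 1, 2 and 3 and the line is the mean of 3. APZ42_022503 lies at 1.95 to 2.71 CPM at day 10, against 162 to 191 CPM at day 6, while in APZ42_034074, APZ42_029452 and APZ42_031291 the square of day 10 or day 17 lies below the other animals of that day.

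The number of models called was lower without any 1 of the day 6 or day 10 animals. Such a fit also has fewer animals in 1 group, and its filter, run anew, left 13054 to 13087 models to test. The part of these in the fall was not tested. As a percentage of the 12690 models of the reported fit, 4.63% were called with all animals. It was 1.89%, 1.00% or 1.43% without replicate 1, 2 or 3 of day 6. Without 1 of the day 10 animals it was 3.06%, 2.02% or 2.33%. The split moved as well, in either direction. With all animals 54.5% of calls were higher at day 10, and without 1 of the day 6 animals 41.2%, 41.7% or 39.0%. The share was 62.1%, 61.7% or 67.6% without 1 of the day 10 animals, and 42.6% with limma-voom without quality weights. So neither direction was the larger in every fit. Of the 587 models, 68 were called in all 6 fits that left out 1 of these animals, 26 of them higher and 42 lower at day 10. DESeq2 called 960 models, 52.9% of them higher, and limma-voom with quality weights 2281, 49.5% of them higher. The 9 libraries alone gave 367 calls out of 10298 models tested, 44.7% of them higher. The 9 libraries thinned to equal depth gave 452 calls, and the 5 most abundant models removed gave 658.

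The 320 models called higher at day 10 had a median exonic length of 3716.5 bases, compared with 2037 for the lower models and 2114 for all tested. Medians were 4, 5 and 5 exons, and 2.3, 2.92 and 1 CPM for the mean level. Length was not read under other settings, nor in the 26 higher models called in all 6 fits named above. Of the 1460 single-exon models tested, 60 were higher (4.11%) and 36 lower (2.47%); of the 8582 with 2 to 9 exons, 181 were higher (2.11%) and 184 lower (2.14%). Models on contigs, the short unplaced pieces of the assembly, were lower more often than higher, with 44 lower (3.80%) and 19 higher (1.64%) of 1159. On scaffolds 223 were lower (1.93%) and 301 higher (2.61%) of 11531. Calls were more frequent among abundant models: 3.71% were higher and 3.57% lower in the upper tercile of levels, compared with 1.44% and 1.16% in the lower tercile (4230 models each). Of the models with ENSRNA IDs, 5 were tested and 0 were called by edgeR.

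A model with no count in any day 6 animal and at least 1 CPM in each day 10 animal was not found (0 of 12690), nor the reverse. The 20 higher and 7 lower called models with no counts on 1 of these days fell short of 1 CPM in some animal of the other day. The same search over the other pairs of days found 1 model, which was at or above 1 CPM in each day 6 animal and had no counts at day 17.

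A few of the models that were higher at day 10 lay next to each other. The longest run held 5 neighbouring tested models on scaffold01581, from 674405 to 680399, 3 of them transcribed from the plus strand and 2 from the minus strand. They were APZ42_023885, APZ42_023888, APZ42_023887, APZ42_023889 and APZ42_023879, in order of position. Their summed level was 1.13, 1.57 and 1.03 CPM at day 6, 5.28, 75.9 and 7.86 CPM at day 10, and 1.84, 9.9 and 1.49 CPM at day 17. On each of the 3 days the animal numbered replicate 2 was the highest, and the one of day 10 stood far above the others. The median log2 change of the 5 was 4.54, with a range from 3.62 to 5.19. Without replicate 2 of day 10 the median was 2.56 and 1 of the 5 was called. Without 1 of the day 6 animals 1, 0 or 2 were called, and 1 was called in a fit of the 9 libraries alone. In exposed animals the same 5 models had day 10 changes of 1.41 to 3.10, each called. Of all 320 higher models 93.8% were called higher there too, and of all tested models 23.0%. Runs of 3 higher models lay on scaffold00005, scaffold00024, scaffold00512 and, from 790391 to 816393, on scaffold01581 as well. Among lower models no run of 3 or more was found.

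**Figure D4:**
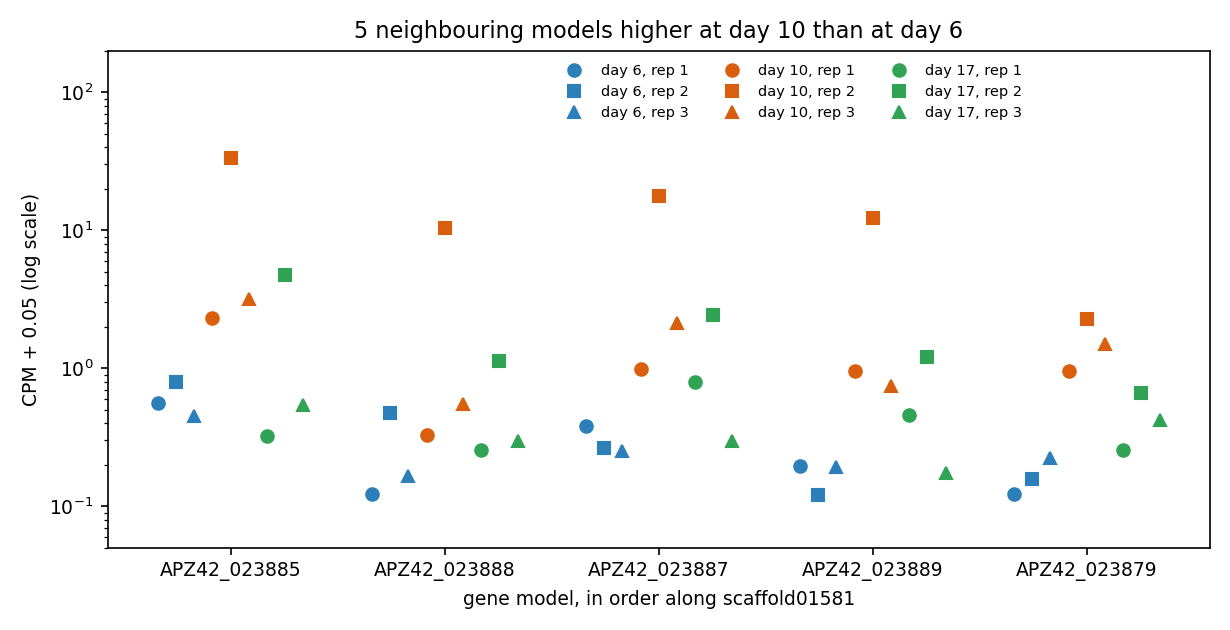
Level of the 5 neighbouring models on scaffold01581 in each unexposed animal, as CPM + 0.05 on a log axis, with models in order of position and animals coloured by day (blue 6, orange 10, green 17). The orange square, replicate 2 of day 10, is the highest point in all 5 models, and the green square, replicate 2 of day 17, is the highest of its day in all 5.

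The models that changed at day 10 without coal ash changed in the same direction in exposed animals, which are other libraries in the same fit. Of the 320 higher models, 315 (98.4%) had the same sign in the mean of the 6 exposed concentrations and 300 (93.8%) were called there. Of the 267 lower models, all 267 had the same sign and 257 (96.3%) were called. No model was called in opposite directions. Among all tested models 74.4% had the same sign, and in exposed animals 5470 (43.1%) were called, 2915 higher and 2555 lower, from 18 animals a day in place of 3. The median changes of the 320 and 267 models were 2.20 and -2.42 at concentration 0, where they were chosen, and 1.41 and -1.49 in exposed animals. Of the 587, 456 had the unexposed sign at each of the 6 concentrations and 88 at 5 of them. That count was not made over all tested models, so it describes the 587 and cannot set them apart from the rest.

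APZ42_022503 shows the pattern over concentrations. In exposed animals its median was 136 CPM (15 to 272) at day 6, 2.25 CPM (0.592 to 47) at day 10 and 4.37 CPM (0.638 to 17.6) at day 17, over 18 animals each. Its log2 change from day 6 to day 10 was -5.36 at 0.015 nM Hg/L, -2.41 at 0.06, -5.90 at 0.12, -6.83 at 0.25, -5.81 at 1 and -1.90 at 4, and it was called at all but 0.06 and 4 nM Hg/L (adjusted p = 0.074 and 0.19). APZ42_026948 was called at all 6, with changes from -8.36 to -3.86. APZ42_034074 had changes of 2.83 to 8.44 and was called at all but 0.12 nM Hg/L (adjusted p = 0.36). APZ42_029452 had changes of 5.54 to 9.22 and was called at all but 0.015 and 0.12 nM Hg/L (adjusted p = 0.11 and 0.093).

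**Figure D5:**
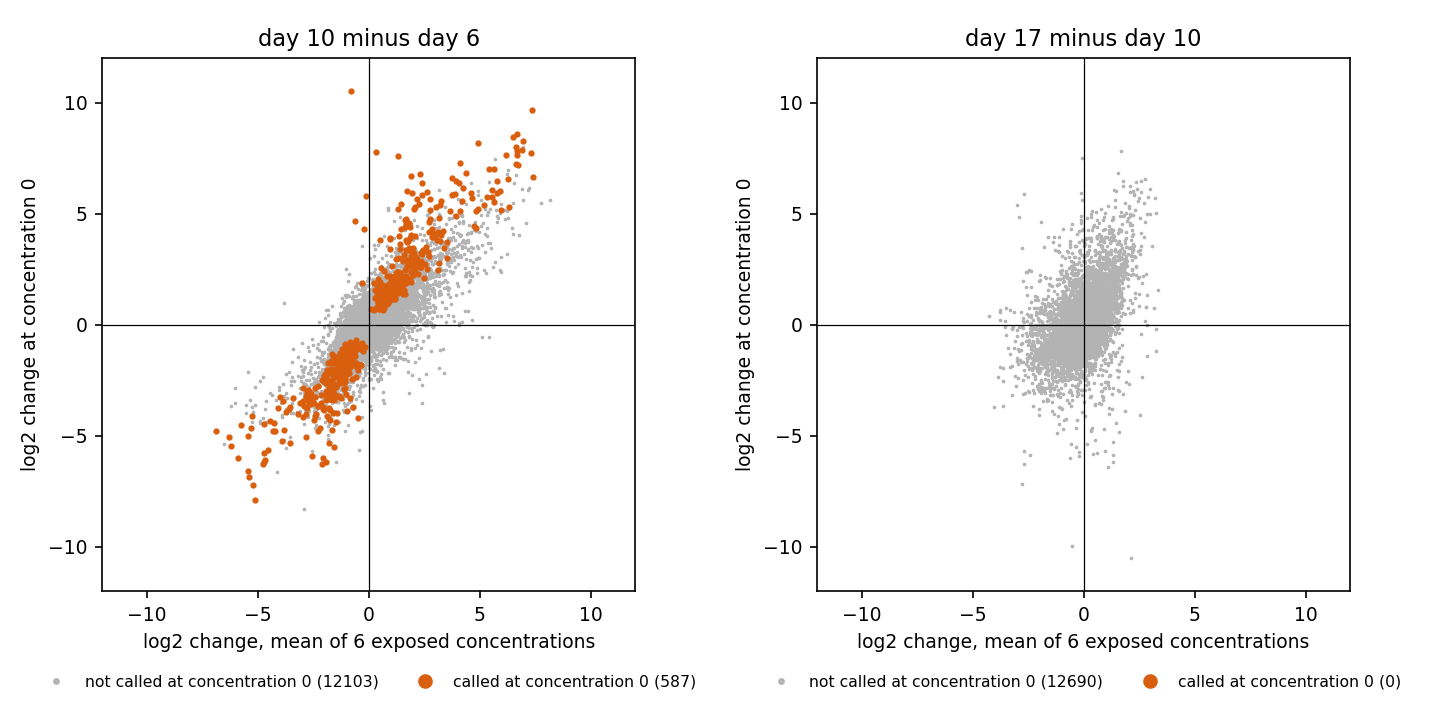
Log2 change of each of 12690 models at concentration 0 (vertical) against the mean log2 change of the 6 exposed concentrations (horizontal), from day 6 to day 10 on the left and from day 10 to day 17 on the right. Orange points are the 587 models called at concentration 0, of which 315 higher and 267 lower models lie in the quadrants of equal sign; on the right no model was called.

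The difference between the unexposed change and the mean exposed change was then tested itself. For day 10 against day 6, 0 of 12690 models differed (0%; edgeR), with 507 at an unadjusted p below 0.05. DESeq2 called 4 and limma-voom 0. For day 17 against day 10, 0 differed (0%; edgeR), with 568 at an unadjusted p below 0.05 and a smallest adjusted p of 0.097; DESeq2 called 7 and limma-voom 0. Leaving out replicate 1 or 3 of day 10 gave 1 and 3 calls for that comparison. This does not show that unexposed and exposed animals changed alike. The 95% interval of the difference lay within a 2-fold change either way (1 in log2) for 1879 models (14.8%) from day 6 to day 10. From day 10 to day 17 it did so for 1953 (15.4%). These shares are rough, since standard errors taken from the F statistic can be far too small or too large where a change is near 0 or counts are few. For day 17 against 10, the difference of APZ42_000844 was -0.09 with an SE of 0.14, while its unexposed change of 2.24 had an SE of 1.4.

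From day 10 to day 17, no single gene model was called in unexposed animals (0 of 12690, 0%; edgeR). At an unadjusted p below 0.05 there were 1631, of which 859 were higher and 772 lower at day 17, and the smallest adjusted p was 0.069. That p belonged to APZ42_021787 (scaffold01265, 64566 to 65430, 3 exons), a model outside the rule for naming that was picked after its values were seen. It had 27.2 CPM in replicate 2 of day 10, 0.0348 and 0.126 CPM in replicates 1 and 3, and no counts in the 6 animals of days 6 and 17. DESeq2 called 14 models, limma-voom with quality weights 614 and limma-voom without them 0. Every fit without 1 animal called 0 by edgeR. A count of 0 is not a measure of no change at this depth. The 95% interval lay within a 2-fold change for 1929 models (15.2%), and the median interval reached 1.23 to either side on the log2 scale. That share is rough too, because it rests on the same kind of standard error.

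Exposed animals, with 18 a day, had 3073 called models (24.2%) for day 17 against day 10, 1279 higher and 1794 lower. Within single concentrations, where 3 animals stood against 3 as at concentration 0, 485 models were called at 0.015 nM Hg/L, 217 at 0.25 and 30 at 1. A count of 0 also occurred at 3 of the 6 exposed concentrations (0.06, 0.12 and 4 nM Hg/L; edgeR). Of the 1279 models that were higher in exposed animals, 1133 (88.6%) had the same sign at concentration 0, with a median log2 change of 0.85 at concentration 0 and 0.89 in exposed animals. Of the 1794 lower models, 1588 (88.5%) had the same sign, with medians of -0.64 and -0.83. Among all tested models 69.9% did.

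Exposed animals had 723 models called for this change with a mean of at least 5 CPM over days 10 and 17. Of these, the 2 at each end of the exposed log2 changes were read at concentration 0, by a rule set after the data had been seen. APZ42_021525 (scaffold01192, 3 to 3903, 3 exons) had 25.5, 0.307 and 3.16 CPM at day 17 and 0.104, 0.136 and 0.314 CPM at day 10, with a log2 change of 5.74 (95% interval 1.38 to 10.09, adjusted p = 0.29). Of the unexposed day 17 animals, replicate 2 overlapped the day 10 animals. APZ42_026118 (scaffold02019, 99993 to 102555, 8 exons) had 5.46, 0.307 and 5.2 CPM at day 17, against 19.4, 0.0227 and 23 CPM at day 10. Its log2 change was -1.94 (95% interval -5.02 to 1.13, adjusted p = 0.62), and replicate 2 was the lowest on both days. APZ42_017566 and APZ42_029816 had log2 changes of 2.27 and 0.68 at concentration 0 (adjusted p = 0.70 and 0.90), against 2.82 and -3.34 in exposed animals. APZ42_029816 (scaffold02649, 202819 to 213387, 1 exon) had 0.682, 23.4 and 0.0619 CPM at day 17 and 1.63, 0.681 and 12.8 CPM at day 10, so that 1 animal of each day was high.

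The models called at day 10 were followed to day 17. These comparisons share the day 6 or day 10 animals with the one that chose the models, so the unexposed values are a description. The 320 higher models had a median log2 change from day 6 of 2.20 at day 10 and 1.22 at day 17, and the 267 lower models one of -2.42 and -1.57. Exposed animals give these medians from other libraries: 1.41 at day 10 and 0.72 at day 17 for the 320 models, and -1.49 and -1.34 for the 267. From day 10 to day 17 in exposed animals, 51.6% of the 320 were called lower and 0.312% higher, and 5.62% of the 267 lower and 12.7% higher. Over all tested models these shares were 14.1% and 10.1%, so the share of the 267 that were higher lay near the background.

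Day 17 differed from day 6 in 229 models (1.80%; edgeR), 87 higher and 142 lower at day 17. The median log2 change was 3.60 among the higher models and -1.95 among the lower ones; with the 11 and 8 models that had no counts on 1 of the days set at their bound, the medians were 3.15 and -1.95. The 2 days did not overlap in 220 of the 229 (96.1%), compared with 25.2% of all tested, a gap that calling on the same values builds in. Lower models were frequent in the upper tercile of levels, with 2.55% of 4230, compared with 0.355% in the lower tercile. The share of calls that were higher was 38% here and between 17.3% (without replicate 3 of day 6) and 51.5% (DESeq2) under the other settings.

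APZ42_013282 (scaffold00245, 79460 to 80955, minus strand, 2 exons) had 77.1, 99 and 66 CPM at day 6, 0.313, 4.47 and 0.566 CPM at day 10, and 0.136, 0.153 and 0.248 CPM at day 17. All 3 days were apart, with every day 17 animal below every day 10 animal and every day 10 animal below every day 6 animal. Its day 17 values rest on 2, 2 and 4 counts. The log2 change from day 6 to day 17 was -8.76 (SE 2.01, adjusted p = 0.012). APZ42_001882 (contig09305, 1 to 1053, plus strand, 2 exons) had 159, 81.5 and 102 CPM at day 6, 1.25, 21.7 and 3.77 CPM at day 10, and 0.477, 0.614 and 1.24 CPM at day 17. It was lower in each later animal than in any day 6 animal, with a change at day 17 of -7.18 (SE 1.88, adjusted p = 0.032).

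Among the higher models, APZ42_034074 had a day 17 change of 7.83 (SE 2.06, adjusted p = 0.033), with the values given above. APZ42_031291 (scaffold02916, 16584 to 17934, plus strand, 4 exons) had 0, 0.214 and 0 CPM at day 6, 5.25, 0.0227 and 4.97 CPM at day 10, and 9.41, 0.23 and 31.7 CPM at day 17. Replicate 2 of day 17 had 3 counts, and replicate 2 of day 6 had 6. The change was 7.52 (SE 2.08, adjusted p = 0.042). Each of the calls of APZ42_034074, APZ42_031291 and APZ42_001882 ended when any 1 of the day 6 animals was left out (adjusted p of 0.058 to 0.19). Those of APZ42_034074 and APZ42_031291 also ended without replicate 1 or 3 of day 17 (0.060 to 0.18). Those of APZ42_013282 and APZ42_001882 ended without any 1 of the day 17 animals (0.064 to 0.14). With limma-voom without quality weights the adjusted p was 0.14 for APZ42_034074, 0.54 for APZ42_031291, 0.12 for APZ42_013282 and 0.075 for APZ42_001882. Without the filter the call of APZ42_034074 ended (0.059). That of APZ42_031291 ended without the filter, with limma-voom with quality weights, with the older edgeR fit and in the 9 libraries alone (0.064 to 0.18). The share of called models was 0.717%, 0.520% or 0.591% without replicate 1, 2 or 3 of day 6 and 0.496%, 1.00% or 0.402% without replicate 1, 2 or 3 of day 17.

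Of the 87 higher and 142 lower models, all had the same sign in exposed animals, where 84 and 140 of them were called. Among all tested models 72.5% had the same sign, and 4147 (32.7%) were called in exposed animals. On scaffold02994, 3 neighbouring models from 432750 to 440217 were lower in day 17 animals than in day 6 animals, at a median of -6.75 on the log2 scale.

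Day 10 was also compared with the mean of days 6 and 17, which does not require day 10 to lie beyond both other days. In unexposed animals 1.30% of models were called by edgeR, 130 higher and 35 lower at day 10 than this mean, at median log2 differences of 2.03 and -1.92. DESeq2 called 395, and its split was 201 and 194. This count moved with the animal left out: it was 27 without replicate 2 of day 10, 31 and 35 without replicates 1 and 3 of day 17, 278 without replicate 2 of day 17, and 86, 97 and 66 without 1 of the day 6 animals. A fit of the 9 libraries alone called 3. Day 10 did not overlap the other days in 74 of the called models (44.8%), compared with 6.37% of all tested, and here too the calls were made on these values.

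APZ42_019767 (scaffold00944, 216807 to 240570, minus strand, 37 exons) was among the higher ones. It had 10.3, 9.16 and 9.48 CPM at day 6, 34.3, 28.4 and 42.5 CPM at day 10, and 14.7, 22.7 and 12.4 CPM at day 17. Each day 10 animal was above every animal of the other days, at a log2 difference of 1.47 (SE 0.37, adjusted p = 0.028). APZ42_015786 (scaffold00568, 285298 to 288615, plus strand, 10 exons) had 2.96, 3.57 and 3.24 CPM at day 6, 9.94, 7.04 and 12.2 CPM at day 10, and 4.57, 6.75 and 4.4 CPM at day 17. The margin between its lowest day 10 animal and its highest day 17 animal was small, and the difference was 1.23 (SE 0.30, adjusted p = 0.020).

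APZ42_025396 (scaffold01872, 55323 to 58955, minus strand, 4 exons) was among the lower ones, with 12.2, 14.6 and 11.2 CPM at day 6, 2.09, 0.431 and 1.13 CPM at day 10, and 5.66, 4.07 and 6.69 CPM at day 17. All 3 days were apart, and the difference was -2.77 (SE 0.73, adjusted p = 0.036). APZ42_022503, already described, had a day 10 difference of -3.80 (SE 0.91, adjusted p = 0.020), although its day 17 values were much nearer to day 10 than to day 6. In 18 exposed animals a day, APZ42_019767 had medians of 9.55, 26.7 and 10.5 CPM at days 6, 10 and 17, and APZ42_025396 had 10.3, 2.21 and 2.86 CPM. The call of APZ42_019767 ended without any 1 day 6 or day 10 animal or without replicate 1 or 3 of day 17 (adjusted p of 0.053 to 0.10). The call of APZ42_025396 ended without any 1 day 6 animal, replicate 2 or 3 of day 10, or replicate 1 or 3 of day 17 (0.055 to 0.15). That of APZ42_015786 ended without replicate 1 or 3 of day 6, replicate 3 of day 10, or replicate 1 or 3 of day 17 (0.050 to 0.11), and that of APZ42_022503 without any 1 day 10 animal (0.057 to 0.10). In the 9 libraries alone the calls of APZ42_019767, APZ42_015786 and APZ42_025396 ended too (0.070 to 0.074). Those of APZ42_015786 and APZ42_025396 ended with all 84 libraries (0.075 and 0.056), and that of APZ42_025396 without the filter (0.059).

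Exposed animals had 4541 called models (35.8%) for the same difference, 2627 higher and 1914 lower. Of the 130 higher models at concentration 0, 96.9% had the same sign in exposed animals and 116 were called, and of the 35 lower models all 35 had the same sign and 28 were called. Among all tested models 71.7% had the same sign. Single-exon models made up 34 of the 130 higher models, which is 2.33% of those tested, compared with 1.02% of all models.

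Some calls came from 1 animal. APZ42_032566 (scaffold03124, 610625 to 615947, 4 exons) had 133 CPM in replicate 2 of day 10 and 0.307 to 1.45 CPM in the other 8 unexposed animals. It was called against the mean of days 6 and 17, at 5.79 (adjusted p = 0.0013), and stood at 0.64 (adjusted p = 0.77) without that animal. Its exposed median was 1 CPM at day 10 and 0.87 CPM at day 17, with a highest single value of 193 CPM at day 17. APZ42_017533 (scaffold00687, 1476316 to 1477645, 4 exons) had 290 CPM in replicate 2 of day 17 and at most 4.83 CPM in the other 8. It was called for day 17 against day 6, at 10.31 (adjusted p = 0.0064), and stood at 2.91 (adjusted p = 0.50) without that animal. One exposed animal of day 10 had 282 CPM of this model. Both models lie outside the rule for naming and were chosen after their values were seen.

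Over all 3 days together, 622 models (4.90%) differed in a joint test at concentration 0 (edgeR). Of these, 91 were called in each of the 9 fits that left out 1 animal. The count was lowest, at 160, without replicate 2 of day 6, and highest, at 737, without replicate 2 of day 17.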

How the data were processed

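RNA of single whole Daphnia magna was depleted of ribosomal RNA and made into libraries that keep strand, per the labels' protocols. The submitters' processing notes name STAR 2.7.5b for alignment. The authors deposited raw whole-number counts per gene model. No source used here gives the counting tool, the use of strand in counting, the build or the gene annotation. Of 27350 models, 6554 had no counts in the 9 unexposed libraries.

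Counts were tested in R 4.3.3 with edgeR 4.0.16 (TMM scaling, filterByExpr with a minimum count of 10, robust quasi-likelihood F test). The fit gave 1 mean to each of 27 groups over 81 libraries (54 residual degrees of freedom) and tested 12690 models; the 3 libraries of concentration 0 at day 24 were left out. Calls were made at a Benjamini-Hochberg adjusted p below 0.05 over all tested models, and this test stands behind every adjusted p for which no other tool is named. Unexposed and exposed contrasts share the estimated spread but no library. Standard errors come from the F statistic and the log2 change, and are unreliable where the change is near 0 or counts are few. CPM was computed from counts and scaled library sizes. Intervals are at 95%.

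For each comparison, the models named are up to 2 at each end of the log2 changes, out of called models that averaged 5 CPM or more, had days that did not overlap and had over 3 counts in each group. The 5 most abundant models and the longest run of neighbours were named too. Members, lists and rules were chosen with earlier results of these data known. Replicates were numbered in accession order. Lists of genes by function could not be formed and no sequence is printed, because no ID is paired with a name. Alternatives were DESeq2 1.42.0, limma-voom (limma 3.58.1), size factors in place of TMM, a fit with no filter, the older edgeR fit, all 84 libraries, the 9 libraries alone, removal of the 5 most abundant models, thinning to equal depth, the share of counts outside those 5 as a covariate, and leaving out each animal in turn. Limma-voom without quality weights, and the reading at concentration 0 of models that led in exposed animals, were added after the data had been seen.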

Additional observations from a re-analysis of the deposited data

How the results depend on the processing

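At this depth 3 counts stand for 0.0681 to 0.23 CPM; with the 9 libraries thinned to equal depth, calls were 3.56% of models for day 10 against 6 and 1.39% for day 17 against 6. Calls are given here as a percentage of the 12690 models of the reported fit, although some fits tested another number. That number was 10298 in the 9 libraries alone and 23963 without the filter. Where calls moved by over 1.5 times the causes were not tested. For day 10 against 6, day 17 against 6 and day 10 against the mean of days 6 and 17, with 4.63%, 1.80% and 1.30% as reported, they were 7.57%, 4.33% and 3.11% with DESeq2, 18%, 11.9% and 12.7% with limma-voom with quality weights, and 2.89%, 1.20% and 0.0236% in the 9 libraries alone. For day 17 against 6 they were 1.13% without the filter and 1.19% with all 84 libraries; for day 10 against that mean they were 0.796% with all 84 libraries and 2.05% with limma-voom without quality weights. The joint test had 23.0% with limma-voom with quality weights and 2.43% in the 9 libraries alone. Day 17 against day 10 had 0.110% with DESeq2 and 4.84% with limma-voom with quality weights. The unexposed minus exposed difference had 0.0315% for day 10 against 6 and 0.0552% for day 17 against 10 with DESeq2, and could not be fitted in the 9 libraries. Leaving out 1 animal gave 1.00% to 4.70% for day 10 against 6, 0% to 0% for day 17 against 10, 0.402% to 2.03% for day 17 against 6, 0.213% to 2.19% for day 10 against that mean, 1.26% to 5.81% for the joint test, 0% to 0% for the difference from exposed animals at day 10 and 0% to 0.0236% at day 17. Of 240 values of the named models under 20 alternatives, 66 were not called and 0 changed sign. Models detected at equal depth changed direction when the 5 most abundant models were counted in: -825 in place of 51.3 for day 10 minus day 6, 168.3 in place of -9.33 for day 17 minus day 10 and -656.7 in place of 42 for day 17 minus day 6. With those 5 models removed before scaling, the median log2 change of all tested models was 0.11 for day 10 against 6 and -0.13 for day 17 against 10, in place of 0.03 and -0.07. No paired analysis was possible because replicate numbers follow accession order and the labels state no tie between animals of different days; numbers in the library names run in series across days, but what a series marks is not stated, so no pairs were drawn from it.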
